A study of Mus musculus with 6 samples.

Results

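The H/ACA box small nucleolar RNAs and the small Cajal body RNAs of mouse bone marrow are described here as every entry whose gene name begins with Snora or Scarna and then a digit. The rule found 48 RNAs, 39 with Snora names and 9 with Scarna names, among 47561 entries in each of 6 libraries. Of these 48, 26 reached 1 FPKM (fragments scaled by transcript length and by library depth) in at least 3 libraries and were tested, 25 Snora and 1 Scarna. Snora62 passed this filter through its CUMS libraries alone.

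The 3 CUMS libraries came from bone marrow of mice exposed for 4 weeks to chronic unpredictable mild stress, a rodent procedure of varied mild stressors used to induce depression-like behaviour. The 3 control libraries came from bone marrow of mice labelled as negative controls. The description label counts from 3 to 8 CUMS samples, depending on the library, while the design text gives 3 and 3 were analysed here. The labels give no strain, sex or age and do not say whether each library is a separate animal. The p-values therefore cover the spread among these samples alone, which may be technical. An exact permutation test of 3 libraries against 3 cannot give a p below 0.1.

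H/ACA RNAs fold into hairpins that base-pair with ribosomal RNA and place pseudouridines there, in a particle with the synthase dyskerin (Dkc1) and the proteins Nhp2, Nop10 and Gar1. Small Cajal body RNAs do the same work, or guide ribose methylation, on the small nuclear RNAs of the spliceosome. In mammals most are not transcribed on their own: they are cut out of introns of host genes, many of which encode ribosomal proteins or translation factors. The mature ends are protected by the bound proteins.

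The sequences of 8 of the 9 RNAs that rose in CUMS once the replicate number was used as a block are shown because the results turn on them. The ANANNA (the H box pattern) nearest the middle and, where present, the ACA followed by 3 bases at the 3′ end are in capitals. The sequences are those of GENCODE M21 on GRCm38, written 5′ to 3′ on the strand of the gene.
Snora7a: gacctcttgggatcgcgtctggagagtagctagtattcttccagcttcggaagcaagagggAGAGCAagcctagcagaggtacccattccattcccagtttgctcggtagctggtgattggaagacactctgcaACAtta
Snora81: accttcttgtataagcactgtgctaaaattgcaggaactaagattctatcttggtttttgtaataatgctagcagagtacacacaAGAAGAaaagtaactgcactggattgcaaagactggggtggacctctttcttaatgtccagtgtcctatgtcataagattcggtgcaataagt
Snora70: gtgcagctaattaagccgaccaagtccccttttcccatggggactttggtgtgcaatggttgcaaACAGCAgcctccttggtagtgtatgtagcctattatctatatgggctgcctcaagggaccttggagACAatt
Snora61: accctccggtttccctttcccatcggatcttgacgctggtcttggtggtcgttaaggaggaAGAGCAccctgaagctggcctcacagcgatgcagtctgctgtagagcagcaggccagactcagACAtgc
Snora44: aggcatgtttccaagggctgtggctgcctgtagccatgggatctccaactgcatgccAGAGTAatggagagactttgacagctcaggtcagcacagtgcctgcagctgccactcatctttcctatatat
Snora64: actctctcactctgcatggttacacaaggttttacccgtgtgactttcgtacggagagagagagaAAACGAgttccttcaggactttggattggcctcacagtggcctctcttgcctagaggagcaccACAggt
Snora31: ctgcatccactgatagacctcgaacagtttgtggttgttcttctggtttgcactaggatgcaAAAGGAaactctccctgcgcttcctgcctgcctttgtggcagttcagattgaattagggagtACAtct
Snora3: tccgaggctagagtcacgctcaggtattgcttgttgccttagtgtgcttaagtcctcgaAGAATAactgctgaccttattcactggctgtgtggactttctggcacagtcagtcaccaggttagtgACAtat

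The motif search covered the given strand of the annotated transcripts. ACA followed by exactly 3 bases at the 3′ end stood in 35 of the 48 RNAs (72.9%) and in 0 of 98 Snord transcripts. It stood in 264 of 1507 small nucleolar and Cajal body RNA genes of other names (17.5%), which include the 98 Snord transcripts. ANANNA centred between 0.4 and 0.6 of the transcript's length stood in 41 of 48 (85.4%). It stood in 32 of 98 Snord transcripts (32.7%) and in 1072 of the 1507 (71.1%). Snora81 and Snora44 have no ACA at that distance from their annotated ends. A match is a description of letters only, and the H box and ACA searches cannot overlap because they cover different stretches.

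Snora7a lies at chr6:115807975-115808114 on the minus strand in Rpl32, where it overlaps an exon of an annotated protein-coding transcript. Snora81 lies at chr16:23110756-23110933 in Eif4a2, Snora70 at chrX:74272484-74272620 in Rpl10, and Snora64 at chr17:24720772-24720905 in Rps2. Snora31 lies at chr14:75847905-75848034 in an intron of Tpt1, and Snora3 at chr7:109520120-109520251 in Rpl27a. Snora44 at chr4:132309941-132310069 and Snora61 at chr4:132310240-132310369 sit 170 bases apart in the noncoding gene Snhg12, whose exons they overlap. All of these except Snora7a are on the plus strand. Since 40 of the 48 RNAs are shorter than a 151-base read in RefSeq, and 17 of the 26 pairs of a tested RNA and a tested host show overlap with an exon of some annotated host transcript, host reads and reads of the small RNA itself cannot be told apart in these values.

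The 48 RNAs made up a small part of each library. Their summed level was 155, 200 and 206 FPKM in CUMS replicates 1 to 3, against 113, 139 and 134 FPKM in control replicates 1 to 3. As a share of the FPKM of all 46333 gene entries this was 0.0237%, 0.0332% and 0.0347% in CUMS, against 0.0171%, 0.0248% and 0.0232% in control. Within each replicate number the CUMS library had the higher sum, but CUMS replicate 1 lay close to the control libraries. The files hold no counts. Within a preset window, the most frequent low value of single-exon genes was taken as a single fragment. The depth could thus only come out within a preset range. On that assumption it was very roughly 16400000 to 18000000 fragments per CUMS library and 17200000 to 18100000 per control library. Some values above 0 then come out far below a single fragment. The 48 RNAs together then rested on about 350 to 471 fragments per CUMS library and 260 to 312 per control library, and Snora7a on about 10.2 to 11.0 per CUMS library and 4.72 to 5.88 per control library.

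Bone marrow identity was checked with marker lists. Erythroid markers (Hbb-bs and others) summed to 118923 to 147335 FPKM in CUMS and 102944 to 122051 FPKM in control, and neutrophil markers (S100a8 and others) to 37522 to 38651 FPKM in CUMS and 34087 to 48771 FPKM in control. Skeletal muscle markers stayed between 5.87 and 7.11 FPKM in CUMS and between 4.70 and 6.98 FPKM in control. Of the monocyte and macrophage markers 3 of 6 were called lower (Csf1r, Cx3cr1 and Fcgr1), with sums of 143 to 147 FPKM in CUMS against 203 to 227 FPKM in control. Of the eosinophil, basophil and mast cell markers, 2 of 6 were called higher (Epx and Prg2), with sums of 1158 to 1190 FPKM in CUMS against 525 to 729 FPKM in control. Of 5 tested stroma and bone markers 1 was called higher (Col1a2), with list sums of 93.5 to 100.1 FPKM in CUMS against 70.9 to 73.9 FPKM in control. Of 6 B cell markers 0 were called, with sums of 394 to 440 FPKM in CUMS against 470 to 548 FPKM in control. With the replicate block, which most of the calls among the small RNAs below need, 5 of 6 monocyte and macrophage markers and 2 of 6 B cell markers fell, and 2 of 6 eosinophil, basophil and mast cell markers and 3 of 5 stroma and bone markers rose. The part of these differences in the levels of the small RNAs was not tested, and in bulk samples fewer cells of a type and less RNA per cell cannot be told apart.

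**Figure D1:**
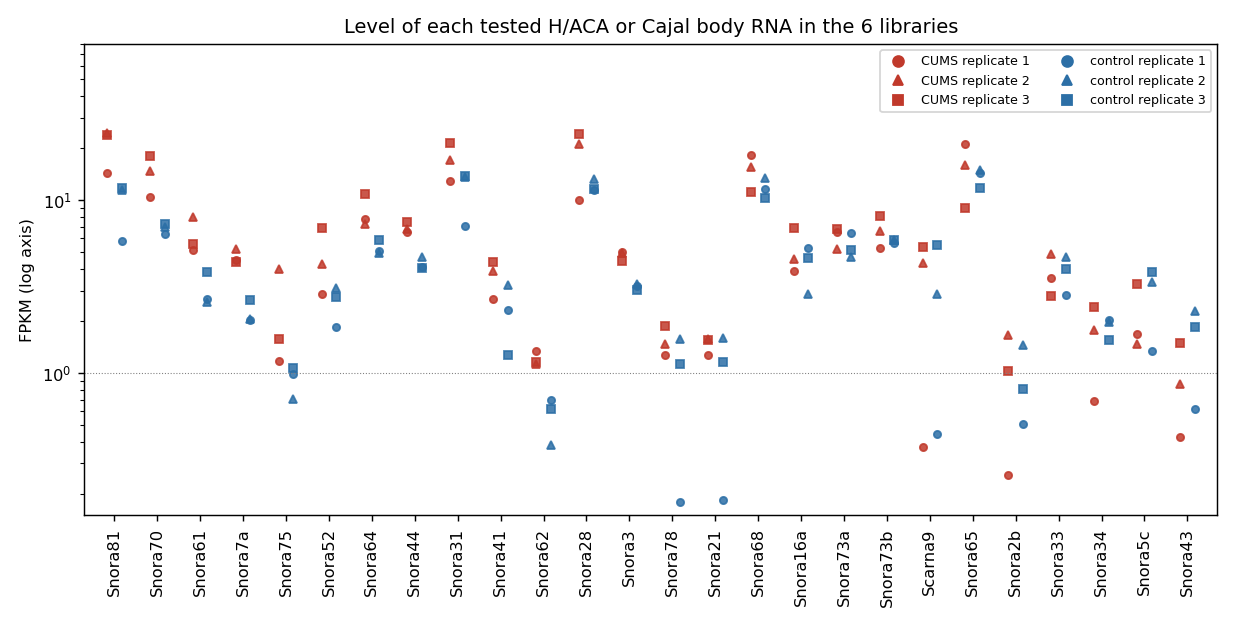
Level in FPKM (log axis) of the 26 tested RNAs in each library, CUMS in red to the left of control in blue, with 1 symbol per replicate number, ordered by log2 change; the dotted line marks 1 FPKM. For Snora81, Snora70, Snora61 and Snora7a every red symbol lies above every blue one.

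In the comparison of CUMS with control, 1 of the 26 tested RNAs passed the threshold, an adjusted p under 0.05 over all 12302 tested genes. Among all tested genes 1.07% passed, 0.618% higher in CUMS and 0.455% lower. Snora7a was at 4.53, 5.22 and 4.41 FPKM in the CUMS libraries, against 2.02, 2.05 and 2.65 FPKM in the control libraries. All 3 CUMS values were above all 3 control values. The means were 4.72 ± 0.437 FPKM in CUMS and 2.24 ± 0.353 FPKM in control (SD, n = 3 each). The log2 change, CUMS minus control on log2(FPKM + 1), was 0.82 ± 0.12 (standard error), with a 95% interval of 0.53 to 1.11 and an adjusted p of 0.0283.

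The file headers also hold a code that no source explains. It is 1 in CUMS replicate 1 and control replicate 1, and 2 in the remaining 4 libraries. Snora7a was higher in CUMS within both: the log2 difference was 0.87 between the code 1 libraries and 0.80 between the code 2 libraries. Its adjusted p rose above 0.05 when any of 5 libraries was left out, control replicate 2 or 3 or CUMS replicate 1, 2 or 3, and ranged over the 6 omissions from 0.0433 to 0.162. With libraries scaled to the same total its adjusted p was 0.0600.

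Deviations from the group mean correlated at 0.689 between the replicate 1 libraries, over all tested genes. For control replicate 2 the correlation was 0.452 with CUMS replicate 2 and 0.459 with CUMS replicate 3. For control replicate 3 it was 0.363 with CUMS replicate 3 and 0.362 with CUMS replicate 2. The replicate number thus set apart replicate 1 alone, which is also header code 1. With the replicate number as a block, 9 of 26 tested RNAs rose and none fell, where 7.80% of all tested genes passed, 3.49% higher in CUMS and 4.31% lower. These were Snora7a, Snora81, Snora70, Snora61, Snora64, Snora44, Snora31, Snora62 and Snora3. Without Snora62, which passed the filter through CUMS alone, they were 8 of 25. With the header code as a term in place of the block, Snora52 joined them to make 10 of 26, or 9 of 25 without Snora62, where 13.4% of all tested genes passed, 6.06% higher in CUMS and 7.31% lower. Within the code 2 libraries alone 10 rose and none fell, with Snora52 and Snora28 among them and Snora62 not, where 17.7% of all tested genes passed, 8.82% higher and 8.84% lower. At an unadjusted p under 0.05 without the block, 9 of the 26 passed, against 15.4% of all tested genes. Snora62 is among these 9.

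A direction toward CUMS ran through most of the tested RNAs. The log2 change was above 0 in 22 of 26, against 49.7% of all tested genes, and its median was 0.46, against -0.0017 over all tested genes. Without Snora62 it was above 0 in 21 of 25, with a median of 0.44. Between the code 1 libraries the median change of all 26 was 0.45, and among the code 2 libraries it was also 0.45. In 9 of 26, or 8 of 25 without Snora62, every CUMS value lay above every control value, which 10% of all tested genes also showed. In none did every CUMS value lie below every control value, which 12.1% of all tested genes showed. CUMS replicate 3 held the highest value of 12 of the 26 and CUMS replicate 2 of 6. The lowest value was in control replicate 1 for 8 of the 26 and in CUMS replicate 1 for 6, and both of these carry header code 1. The filter kept RNAs with levels near 1 FPKM that were high in either group, and over the 46 RNAs above 0 in any library the median change was 0.16.

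**Figure D2:**
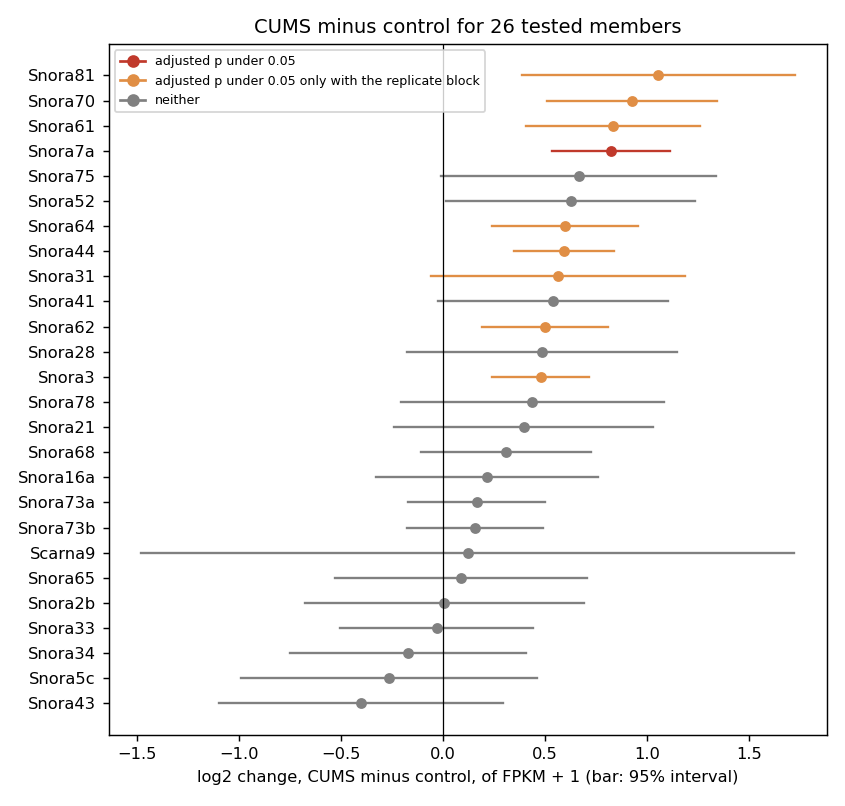
Log2 change (CUMS minus control on log2(FPKM + 1)) of the 26 tested RNAs with 95% intervals from limma; red marks an adjusted p under 0.05, orange one under 0.05 with the replicate block only, grey neither. The points lie right of 0 for 22 of 26, and Snora81 (1.05) has the largest change.

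Ribosomal protein genes host 11 of the 48, and 10 of these were tested. The change was above 0 in 9 of the 10, against 49.7% of all tested genes, with a median of 0.49. Without Snora62 it was above 0 in 8 of 9, with a median of 0.48. With the block 5 of the 10 rose, where 3.49% of all tested genes rose, and 4 of 9 did without Snora62. Snora70, which guides pseudouridylation of small-subunit ribosomal RNA in human, lies in Rpl10. It was at 10.4, 14.7 and 17.9 FPKM in CUMS, against 6.40, 7.03 and 7.32 FPKM in control. The groups did not overlap, and the control values lay close together while CUMS replicate 1 was the lowest of its group. The log2 change was 0.93 ± 0.18, with an adjusted p of 0.064 and of 0.00895 with the block, and it was 0.63 between the code 1 libraries and 1.07 among those of code 2.

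Snora64, known in human as a guide for large-subunit ribosomal RNA, lies in Rps2. It was at 7.79, 7.29 and 10.9 FPKM in CUMS, against 5.08, 4.93 and 5.92 FPKM in control, again without overlap. Its log2 change was 0.60 ± 0.15, with an adjusted p of 0.126 and of 0.0167 with the block.

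Snora3 was among the RNAs with the narrowest spread. It was at 5.02, 4.92 and 4.46 FPKM in CUMS, against 3.20, 3.29 and 3.00 FPKM in control. All CUMS values were higher, and the log2 change was 0.48 ± 0.10 (adjusted p 0.0776, and 0.0234 with the block). Snora62 was the faintest of the 9, at 1.34, 1.13 and 1.15 FPKM in CUMS against 0.695, 0.386 and 0.618 FPKM in control. Those levels rest on about 2.41 to 3.12 fragments per CUMS library and 0.897 to 1.63 per control library. Its log2 change was 0.50, given as a description only, because it passed the filter through its CUMS libraries alone.

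Snora52, in Rplp2, was at 2.86, 4.26 and 6.91 FPKM in CUMS, against 1.85, 3.09 and 2.76 FPKM in control. CUMS replicate 1 lay below control replicate 2. The log2 change was 0.62 ± 0.26, with an adjusted p of 0.317, of 0.0517 with the block and of 0.0345 with the header code as a term. The more abundant Snora65 and Snora68, both guides for large-subunit ribosomal RNA in human, did not pass in any of these fits. Snora65 was at 21.1, 16.0 and 9.0 FPKM in CUMS, against 14.4, 14.9 and 11.8 FPKM in control, so that CUMS held both its highest and its lowest value. Snora68 was at 18.3, 15.6 and 11.2 FPKM in CUMS, against 11.6, 13.4 and 10.3 FPKM in control, with a log2 change of 0.31 ± 0.18. In both of these RNAs CUMS replicate 1 was the highest library, unlike most others. Snora21 and Snora33 also failed to pass, with log2 changes of 0.39 and -0.03.

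Translation factor genes, Tpt1 and Ncl host 6 of the RNAs, of which 5 were tested. All 5 changes were above 0, against 49.7% of all tested genes, with a median of 0.56. With the block 2 rose, where 3.49% of all tested genes rose. Snora81 was among the most abundant RNAs, at 14.3, 24.4 and 23.7 FPKM in CUMS, against 5.77, 11.5 and 11.7 FPKM in control. In both groups replicate 1 was the lowest, and the lowest CUMS value was above the highest control value. The log2 change was 1.05 ± 0.29, the adjusted p 0.143 without the block and 0.00221 with it. The difference was 1.18 between the code 1 libraries and 0.99 among those of code 2.

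Snora31, in an intron of Tpt1, was at 12.9, 17.1 and 21.5 FPKM in CUMS, against 7.05, 13.6 and 13.9 FPKM in control. CUMS replicate 1 lay just below control replicates 2 and 3, but above control replicate 1. Its log2 change was 0.56 ± 0.27, with an adjusted p of 0.371 and of 0.0262 with the block. Snora75, in Ncl, which encodes nucleolin, was at 1.17, 3.98 and 1.58 FPKM in CUMS, against 0.984, 0.708 and 1.07 FPKM in control. The groups did not overlap but CUMS replicate 2 stood apart, and the log2 change of 0.66 ± 0.29 did not pass (adjusted p 0.332, and 0.15 with the block). Snora28, a small-subunit guide in human and hosted by Eif5, was at 9.97, 21.2 and 24.1 FPKM in CUMS, against 11.4, 13.3 and 11.6 FPKM in control. The code 1 pair differed by -0.18 and the code 2 libraries by 0.82, and the change over all 6 was 0.49 ± 0.28 (adjusted p 0.473). Snora41, in Eef1b2, was at 2.69, 3.89 and 4.36 FPKM in CUMS, against 2.31, 3.22 and 1.26 FPKM in control (0.54 ± 0.24, adjusted p 0.347).

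Noncoding genes host 9 RNAs, of which 6 were tested. All 6 changes were above 0, against 49.7% of all tested genes, with a median of 0.33. With the block 2 rose, where 3.49% of all tested genes rose. Snora61 was at 5.17, 7.96 and 5.54 FPKM in CUMS, against 2.69, 2.57 and 3.86 FPKM in control. The groups did not overlap. The log2 change was 0.83 ± 0.18, with an adjusted p of 0.0824 and of 0.032 with the block. The RefSeq record of Snora61 is 62 bases long, against 130 for the sequence shown. By that record and the rough depth it rested on about 5.72 to 8.07 fragments per CUMS library and 2.86 to 4.12 per control library. Snora44, a small-subunit guide in human, was at 6.56, 6.80 and 7.50 FPKM in CUMS, against 4.08, 4.68 and 4.06 FPKM in control. Both groups were tight and apart, and the log2 change was 0.59 ± 0.11 (adjusted p 0.0525, and 0.0167 with the block).

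Snora16a, in the same host, was at 3.87, 4.54 and 6.94 FPKM in CUMS, against 5.27, 2.88 and 4.61 FPKM in control. Its groups overlapped and its log2 change was 0.22 ± 0.23 (adjusted p 0.728). The 3 RNAs of Snhg12 thus gave unlike values, although whether their changes differ from each other was not tested.

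Snora73a and Snora73b, the U17 RNAs, act in the cleavage of the ribosomal RNA precursor rather than as pseudouridine guides. They lie 248 bases apart within both Snhg3 and Rcc1. Their sequences are identical at 198 of 205 positions (96.6%), so that the division of reads between them is uncertain. Snora73a was at 6.55, 5.23 and 6.80 FPKM in CUMS, against 6.49, 4.66 and 5.15 FPKM in control, and Snora73b at 5.28, 6.66 and 8.10 FPKM in CUMS, against 5.63, 5.88 and 5.89 FPKM in control. Both had a log2 change of 0.16 ± 0.14, and neither passed in any of these fits. Snora78 had a log2 change of 0.44 that did not pass.

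Other protein-coding genes host 17 RNAs, of which 4 were tested, and none passed. The changes were -0.26 for Snora5c, -0.17 for Snora34, 0.01 for Snora2b and 0.12 for Scarna9. Snora43, the 1 tested RNA with no same-strand host, was at 0.428, 0.864 and 1.49 FPKM in CUMS, against 0.623, 2.28 and 1.86 FPKM in control. Its log2 change of -0.40 ± 0.30 was the lowest of the 26 and did not pass (adjusted p 0.589).

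Scarna9, known in human as a box C/D Cajal body RNA, was the only tested Scarna. It was at 0.375, 4.31 and 5.38 FPKM in CUMS, against 0.444, 2.86 and 5.51 FPKM in control. Replicate 1 of each group stood near the floor and the other 4 libraries above it, so that the header code and not the group parted the values. Those values rest on few reads. By the rough depth and a RefSeq record of 42 bases, Scarna9 had about 0.281 and 0.337 fragments in the code 1 libraries. In the code 2 libraries it had about 2.15 to 4.06. The log2 change of Scarna9 between the groups, 0.12 ± 0.69, carried the widest error of the 26.

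The header code was therefore compared directly, with group kept in the fit. Of the 26 RNAs, 9 were higher in the code 2 libraries than in the code 1 libraries and 0 were lower, where 30.5% of all tested genes passed, 17.7% higher and 12.7% lower. The log2 difference, code 2 minus code 1, was 1.94 for Scarna9, 0.81 for Snora81, 0.75 for Snora43, 0.71 for Snora31, 0.68 for Snora2b, 0.61 for Snora78 and Snora28, 0.60 for Snora52 and 0.59 for Snora21. It was above 0 in 21 of the 26, with a median of 0.30, while for Snora7a it was 0.10 and did not pass. By the rough depth Snora2b rested on about 0.515 to 3.04 fragments per library and Snora21 on 0.424 to 3.64. Snora78 rested on 0.5075 to 5.25 and Snora43 on 1.06 to 5.675, against 14.28 to 43.25 for Snora31 and 21.72 to 52.91 for Snora28. Among the 9 RNAs that rose with the block, Snora81 and Snora31 also passed for the header code. Of the other short structured RNAs on the list, all 5 tested were higher with code 2, among them Rn7sk, the RNA that holds the elongation factor P-TEFb inactive, at 3.08, 32.7 and 25.0 FPKM in CUMS and 1.95, 17.6 and 22.6 FPKM in control. Of the nuclear-retained long RNAs 1 of 2 tested was higher, Malat1, at 23.1, 165 and 144 FPKM in CUMS and 21.7, 147 and 107 FPKM in control. The other, Neat1, did not pass (log2 difference 0.43, adjusted p 0.573). The part of what the code stands for in the levels of the small RNAs was not tested.

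**Figure D3:**
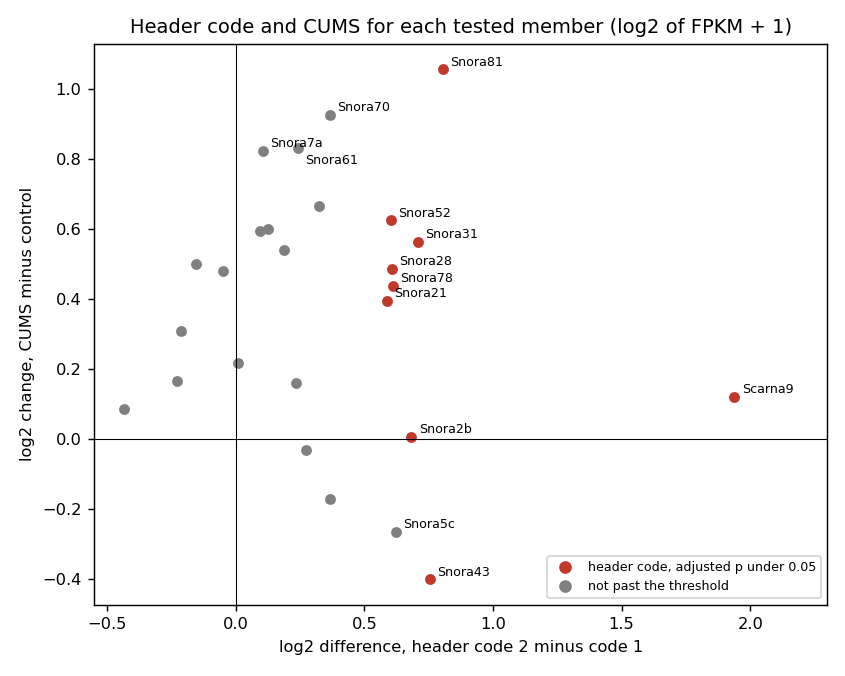
Log2 difference of code 2 minus code 1 libraries (x axis) and log2 change of CUMS minus control (y axis) for the 26 tested RNAs, each on log2(FPKM + 1); red marks an adjusted p under 0.05 for the header code. Scarna9 lies far right at 1.94 with a group change of 0.12, and Snora7a sits near 0 for the code with a group change of 0.82.

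The remaining 22 RNAs, 14 Snora and 8 Scarna, did not pass the filter and were not tested in the fits above. Their highest value in any library was 2.65 FPKM, and 13 reached 1 FPKM in no library. Snora35 and Scarna6 were listed at 0 in all 6 libraries. The mean was higher in CUMS for 10 of the 22 and lower for 10. The highest value among them was that of Scarna10, in human a guide with both box types for the U5 small nuclear RNA, at 0, 2.65 and 1.70 FPKM in CUMS against 0, 0.982 and 0.720 FPKM in control. It was listed at 0 in both libraries of code 1. Scarna8 averaged 0.751 FPKM in CUMS and 0.570 FPKM in control, and Scarna2, whose human counterpart acts on U2 small nuclear RNA, 0.826 and 0.799 FPKM. In Snora19 and Snora26 every CUMS value was above every control value and in Snora20 every one was below, all under 1 FPKM. These are 2 and 1 of 22. The shares were 10% and 12.1% among all tested genes, which unlike these RNAs passed the filter. By the rough depth Snora19, Snora26 and Snora20 stayed below a single fragment in every library, so their order cannot be read as a difference. In the alternative fit with no filter, which held 46 of the 48 RNAs, 0 passed, where 0.159% of all genes in that fit passed.

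Since most of these RNAs are cut from host transcripts, each was set beside its host. Among 26 pairs of a tested RNA and a tested host, covering 24 RNAs and 21 hosts, the RNA had the larger change in 17. The pair of Snora62 is among these 17. Of 37 tested hosts 0 passed in the fit without the block, where 1.07% of all tested genes passed, and only Ncl passed with the block, where 7.80% did. The median host change was 0.11. The change was above 0 in 28 of 37 hosts, against 49.7% of all tested genes. In 8 of 37 every CUMS value lay above every control value, and in none below, against 10% and 12.1% of all tested genes. With the header code as a term 7 of 37 hosts rose, where 6.06% of all tested genes rose. In the code 2 libraries alone 11 of 37 rose, where 8.82% of all tested genes rose. Across the 26 pairs the changes of RNA and host had a Pearson r of -0.040 and a Spearman rho of -0.0045, a description only, because pairs share hosts and libraries.

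Rpl32, the host of Snora7a, was at 785, 765 and 753 FPKM in CUMS, against 909, 661 and 689 FPKM in control. Its groups overlapped and its log2 change was 0.04 (adjusted p 0.926). Per length, Snora7a stood at 0.578%, 0.682% and 0.585% of the level of Rpl32 in CUMS, against 0.222%, 0.310% and 0.384% in control. The ratio was higher in every CUMS library than in any control library. The same held for Snora81 over Eif4a2, at 20.9%, 29.1% and 31.9% in CUMS against 8.32%, 15.9% and 17.6% in control. It held also for Snora70 over Rpl10, at 1.26%, 1.74% and 2.07% in CUMS against 0.711%, 0.985% and 0.975% in control.

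In all, the ratio of RNA to host was higher in every CUMS library in 7 of 26 pairs, the others being those of Snora3, Snora61, Snora62 and Snora64, and in 6 of 25 without Snora62. No such share was computed for other gene pairs, so these counts are a description. It was lower in every CUMS library in 1, Snora73b over Snhg3, at 22.1%, 20.9% and 20.9% in CUMS against 24.6%, 27.0% and 29.3% in control. Ncl was at 53.2, 58.2 and 53.3 FPKM in CUMS, against 40.7, 32.5 and 34.8 FPKM in control. Its log2 change was 0.60, with an adjusted p of 0.0525 and of 0.0175 with the block, beside the 0.66 of Snora75 within it.

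**Figure D4:**
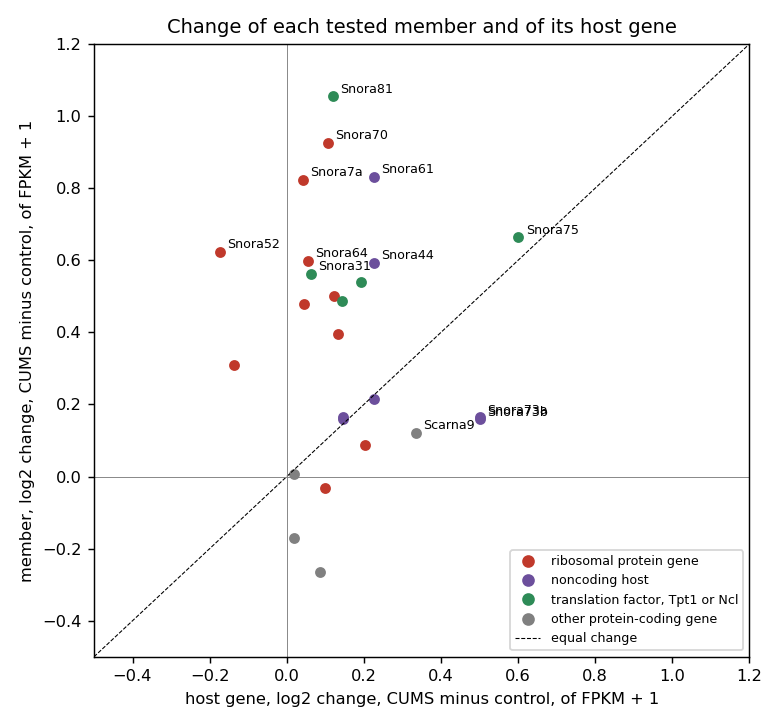
Log2 change (CUMS minus control on log2(FPKM + 1)) of each tested RNA (y axis) against that of its host gene (x axis), coloured by kind of host, with the dashed line of equal change. Host changes run from -0.17 to 0.60, and Snora81, Snora70, Snora7a and Snora61 lie far above the line.

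The box C/D RNAs, which guide ribose methylation and are likewise cut from introns, are the class most like these. Of 99 Snord entries 53 were tested, and 1 passed without the block and 10 with it, where 1.07% and 7.80% of all tested genes passed. All of these calls were higher in CUMS, where 3.49% of all tested genes rose with the block and 4.31% fell. In the code 2 libraries alone 15 of 53 rose and 2 fell, where 8.82% of all tested genes rose and 8.84% fell. The log2 change was above 0 in 42 of 53 Snord RNAs, against 49.7% of all tested genes, with a median of 0.23. In 11 of 53 every CUMS value lay above every control value, as in 10% of all tested genes. In none did every CUMS value lie below every control value, which 12.1% of all tested genes showed. The 53 include 1 RNA that passed the filter through its CUMS libraries alone. The difference between the classes was not tested.

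The proteins of the H/ACA particle gave no call without the block, where 1.07% of all tested genes passed. Of the 4 core proteins Dkc1, the pseudouridine synthase, was at 19.5, 23.2 and 22.0 FPKM in CUMS, against 14.1, 14.6 and 16.4 FPKM in control. All CUMS values were higher. Its log2 change was 0.49 (adjusted p 0.0786), and with the block it rose (adjusted p 0.0187). Nhp2 (0.23), Gar1 (0.16) and Nop10 (-0.00) passed in neither fit.

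With the block 7.80% of all tested genes passed, 3.49% higher in CUMS and 4.31% lower. Each of the lists that follow had 1 call, higher in CUMS. Lists this short cannot show whether 1 call is more than this share gives. Of 9 tested assembly and Cajal body proteins 0 passed without the block and 1 with it, Nolc1, a nucleolar and Cajal body protein that binds small nucleolar RNA particles (log2 change 0.53, adjusted p 0.109, and 0.0125 with the block). Of 13 tested genes of 3′ end maturation and turnover 0 passed without it and 1 with it, the exosome nuclease Dis3 (0.47, adjusted p 0.0784, and 0.0247 with the block). Of 12 pseudouridine synthases that work without a guide RNA 0 passed without it and 1 with it, Pus7 (0.50, adjusted p 0.0776, and 0.0227 with the block). Of 4 C/D core proteins 0 passed without it and 1 with it, Nop58 (0.50, adjusted p 0.0725, and 0.0136 with the block). None of the genes of these lists fell in either fit. The telomerase RNA Terc, which carries an H/ACA domain, and the catalytic subunit Tert were too low to test.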

How the data were processed

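RNA extracted with TRIzol was sequenced as paired reads of 151 bases on a NovaSeq instrument, per the labels' protocols. Listed in the submitters' processing notes are DESeq2 2.11.40.6, featureCounts 1.6.4, HISAT2 2.1, cutadapt 1.16.5, bcl2fastq 2.19 and the mm10 build; which step made the values is not given in the sources used here. The deposited values are FPKM, a unit read from the values themselves, and how reads of overlapping genes and strands were assigned is not stated. They are not whole multiples of 1 read, so no counts were recovered and no count test was run. The depth is therefore only rough, and the precision rests on the spread between 3 libraries of a group.

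The 1228 entries that are not named genes were left out of all sums and fits. Gene entries that reached 1 FPKM in 3 or more of the 6 libraries were tested with limma 3.58.1 (R 4.3.3), with an intensity trend, on log2(FPKM + 1). The term was group, with Benjamini-Hochberg adjustment over all tested genes at 0.05. The plan named this test for a normalized unit and another for counts, and the unit decided between them. Changes on this scale understate those of low genes. The fit was tested on simulated data. Tables, sequences and plots were made with Python 3.11.15, pandas 2.3.3, Biopython 1.88 and matplotlib 3.10.9. Members were matched to GENCODE M21 and to RefSeq by symbol, 48 of 48 in each, and a host is a gene on the same strand whose span contains the member.

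To check the pairing, each library's log2 values were taken minus its group's mean, and CUMS and control libraries of equal number were correlated over the tested genes. The correlation was 0.689 for replicate 1, 0.452 for replicate 2 and 0.363 for replicate 3. Every value is above 0.1, so the replicate number was treated as a pairing and values with it as a block are given where they change a call. The pairing comes from the replicate numbers in the titles. Replicates 2 and 3 crossed gave 0.459 and 0.362, and replicate 1 of both groups also shares header code 1, so that the pairing and the code cannot be told apart there.

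Named were the RNAs that passed, the 10 with the largest change, the 10 with the highest mean, Scarna9, their hosts, the core protein and telomerase genes and any list gene that passed; the others named were chosen after their values were seen. The sequence of 1 RNA is not reported here, and host values are given only for some hosts. The members and lists were chosen with earlier results of these data known. Alternatives were 2 other pseudocounts (0.1 and 5), 3 other filters, 2 scalings, no trend, the block, the header code as a term or its code 2 libraries alone, and each library left out.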

Additional observations from a re-analysis of the deposited data

How the results depend on the processing

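The log2 changes of the 40 named genes gave 584 values that kept direction and side of the threshold, 43 that passed only under the alternative, 31 that no longer passed and 17 with the opposite sign. The number of tested small RNAs called, 1 in the report, was 0 with no filter (Snora7a adjusted p 0.113), 0 with a filter of 5 FPKM, which left 11 RNAs and dropped Snora7a, and 0 after scaling to the same total. It was 3 with quantile normalization (Snora44, Snora70 and Snora7a), 2 without the trend, 9 with the replicate block, 10 with the header code as a term, 10 in the code 2 libraries alone and 0 to 2 with 1 library left out. Without CUMS replicate 1 the 2 were Snora70 and Snora28, and neither was Snora7a. Calls among all tested genes, 132 in the report, numbered 43 with no filter, 199 with quantile normalization, 959 with the replicate block, 1645 with the header code as a term, 2173 in the code 2 libraries alone and 17 to 262 with 1 library left out (CUMS replicate 1: 72, replicate 2: 19, replicate 3: 17; control replicate 1: 262, replicate 2: 33, replicate 3: 17). The share of these calls that were higher in CUMS was 57.6%, but 39.5% after scaling to the same total and 44.7% with the replicate block. Called hosts, 0 in the report, were 1 with a filter of 5 FPKM, 1 after scaling to the same total, 1 with quantile normalization, 1 with the replicate block, 7 with the header code as a term, 11 in the code 2 libraries alone and 0 to 2 with 1 library left out (2 without control replicate 1). The median change of the tested small RNAs stayed above 0 in every alternative run, from 0.16 with no filter to 0.60 with a pseudocount of 0.1.

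Changes of opposite sign came from genes with small changes. Snora65 was at -0.13 in the code 2 libraries alone and Nop10 at 0.026 with quantile normalization. Over the omissions of 1 library Snora65 ran between -0.17 and 0.41, Scarna9 between -0.48 and 0.81, Rps2 between -0.045 and 0.11, Tpt1 between -0.028 and 0.22, Rpl32 between -0.044 and 0.19 and Nop10 between -0.11 and 0.081. The cause was not tested. The replicate block changed the call of no other small RNA than the 8 given with it.

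The depth limits the low RNAs most, since the 22 untested ones rest on a few fragments or fewer. Some tested RNAs, such as Scarna9 and Snora2b, also rest on few fragments. RNAs shorter than the reads, and RefSeq records under 80 bases such as those of Scarna9 and Snora61, give FPKM that depend strongly on the length used.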
